A study of Mus musculus with 12 samples.

Results

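The iron genes described here are 10 genes that carry iron into cells, store it or let it out, out of 21751 genes and loci in one deposited table and 24054 genes in the other. They were picked by symbol, for their role in iron handling, at a time when the differences between knockout and floxed tumours in these same tables were already known. The ferritin receptor gene Scara5 was known to differ most, so the differences between groups are given below as descriptions, with no test on single members. All 10 genes were listed in both tables and all 10 passed the filter of a mean value of at least 1. RNA came from liver tumours of C57BL/6 mice, in 12 libraries that form 4 groups of 3. All mice had received diethylnitrosamine (DEN, 25 mg/kg, in week 2 after birth) and then carbon tetrachloride every week (CCl4, 0.5 ml/kg), and were killed at 5 months of age. The floxed groups were Miz1fl/fl and Miz1(POZ)fl/fl without Alb-Cre, and the knockout groups carried the same floxed alleles with Alb-Cre, labelled Miz1_delta_Hep and Miz1(POZ)_delta_Hep. Miz1, the product of Zbtb17, is a zinc finger transcription factor, and its POZ domain mediates contacts with other proteins. The albumin promoter drives Cre in hepatocytes, so that stromal and immune cells of a tumour keep the floxed allele. The labels say neither how many mice or tumours a library stands for nor which exons were removed, so p-values measure only the spread between these libraries, which may be technical.

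Iron circulates bound to transferrin (Trf), which hepatocytes make and which cells take up through transferrin receptor 1 (Tfrc), while hepatocytes also use transferrin receptor 2 (Tfr2) as a sensor of iron load. Inside the cell, iron that is not used is stored in shells of ferritin heavy and light chains (Fth1, Ftl1), and it leaves through ferroportin (Slc40a1) with the help of the ferroxidase ceruloplasmin (Cp). Iron regulatory proteins bind a small RNA hairpin, the iron responsive element, and thereby block translation when it lies before the coding sequence or stabilise the mRNA when it lies after it. An mRNA level therefore shows only part of the control of ferritin and ferroportin.

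The hairpins are shown here because they are the known sites at which iron acts on the mRNAs of several members. The search covered 27 complete protein-coding transcripts of the 10 genes in GENCODE M21 (GRCm38, the build named mm10 in the submitters' processing notes), on the transcript strand. It looked for a C, 5 bases of any kind, the letters CAGTG with 1 more base of any kind, and then 5 bases that can pair, G with T included, with the 5 bases between the C and the loop. The other strand was not searched. The capitals mark the bulged C and the 6 bases of the loop, and 6 further bases stand on each side. Only matches that lay wholly in untranslated sequence were kept, and those in coding sequence or across its border were dropped. There were 7 such untranslated sites in 4 members.
Tfrc 3′ UTR, chr16:32631219-32631247, plus strand: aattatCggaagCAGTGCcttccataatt
Tfrc 3′ UTR, chr16:32631598-32631626, plus strand: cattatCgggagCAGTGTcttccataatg
Tfrc 3′ UTR, chr16:32631663-32631691, plus strand: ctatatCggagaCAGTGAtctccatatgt
Tfrc 3′ UTR, chr16:32631710-32631738, plus strand: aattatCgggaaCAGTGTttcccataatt
Fth1 5′ UTR, chr19:9982732-9982760, plus strand: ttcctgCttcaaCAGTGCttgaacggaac
Ftl1 5′ UTR, chr7:45459779-45459807, minus strand: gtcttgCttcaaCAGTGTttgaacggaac
Slc40a1 5′ UTR, chr1:45925465-45925493, minus strand: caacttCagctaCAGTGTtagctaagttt
Among 21760 genes searched in 1 transcript each, 0.0873% held such a paired site in the 5′ UTR and 0.478% in the 3′ UTR. The letters alone, without the pairing, were in 7.5% and 29.7%. A match describes the letters and is not evidence of binding. The absence of a match in the other 6 members says only that no such paired site was in the untranslated regions of the transcripts searched. A hairpin with a mismatch or an extra base in that stem would be missed, so those members may still hold an element.

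The tumours expressed the hepatocyte genes that their label calls for. All 12 hepatocyte markers had a mean of at least 1 in both tables, and albumin (Alb) was at 1213390 to 4518470 normalised reads in the Miz1 table and at 23093 to 62597 FPKM in the Miz1(POZ) table. In the Miz1 table, replicate 1 of both groups stood apart. Cyp2e1, an enzyme of hepatocytes around the central vein, was at 6372 (floxed) and 7059 (knockout) normalised reads in these libraries, where the remaining 4 had 57731 to 131465. The Miz1 values are read counts divided by a factor for each library, and the 5 libraries whose reads were recovered hold 30151743 to 76122969 reads in genes. The depth of the Miz1(POZ) table is unknown. Zbtb17 was at 302 to 323 normalised reads in floxed and 261 to 271 in knockout Miz1 tumours, which did not overlap, and at 1.82 to 2.46 and 1.95 to 2.60 FPKM in the Miz1(POZ) tumours, which did. In bulk tissue, fewer cells of a type and less RNA per cell cannot be told apart, and this holds for every value below.

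Levels can be compared between genes only per length, as FPKM gives them. Over the 6 Miz1(POZ) libraries the members spanned from transferrin, at 12083 ± 3707 FPKM (SD, n = 6), to Scara5, at 5.64 ± 4.15. Ftl1 came next to transferrin at 2431 ± 807, followed by Fth1 at 1061 ± 146 and ceruloplasmin at 866 ± 296. Fth1 and Cp could not be ranked, since Fth1 was the higher of them in 4 of 6 libraries. Tfr2 was at 100.7 ± 22.7 FPKM, Slc40a1 at 61.8 ± 13.6 and Slc39a14 at 58.9 ± 6.72, and Slc40a1 lay above Slc39a14 in 3 of 6 libraries only. Tfrc followed at 14.6 ± 3.13 and Slc11a2 at 7.97 ± 1.51. The receptor that senses iron was thus 3.93 to 11.4 times as high as the receptor that takes up transferrin within each library. Slc11a2 and Scara5 exchanged order between libraries, with Slc11a2 higher in 4 of 6. The place of Scara5 depended on the group, since its mean of 1.99 FPKM in floxed tumours lay below the 7.56 of Slc11a2, while its 9.29 in knockout tumours lay above the 8.38 of Slc11a2. In knockout replicate 1 Scara5 (11.04) was also above Tfrc (10.78).

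When the Miz1 values were divided by transcript length (GENCODE M21, 1 principal transcript per gene), the lower part of the order was the same except that Slc39a14 came before Slc40a1, but the top of it was not. Ceruloplasmin led at 30912 ± 12806 normalised reads per kilobase (SD, n = 6), followed by Ftl1 at 20395 ± 3762, Fth1 at 17170 ± 4260 and transferrin at 11099 ± 6154. The ferritin chains could not be ranked, since Ftl1 was at 0.745 to 2.10 times Fth1. Their order also rests on the transcripts used, of 1494 bases for Fth1 and 968 for Ftl1. In that Fth1 transcript the stretch shown above begins only at base 658, and other transcripts were not tried. Transferrin was at 0.258 to 0.501 times ceruloplasmin there, against 12.7 to 17.1 times in FPKM. In GENCODE M21, 82.0% of the bases of the Trf transcript lie in exons of a second protein-coding gene on the same strand, Gm20425. For Ftl1, 47.9% of the transcript lies in exons of Gm10252, which is on the opposite strand, and of Gm22133, a microRNA gene on the same strand. The Miz1 table sets aside ambiguous reads, 1753528 to 3321150 normalised reads per library, and multimapping reads, 4288108 to 5969682. The ambiguous reads were highest in floxed replicate 1 and lowest in floxed replicate 2, as was Trf. How far these reads lower Trf or Ftl1 was not tested, and the levels of both genes in the Miz1 table are uncertain.

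**Figure D1:**
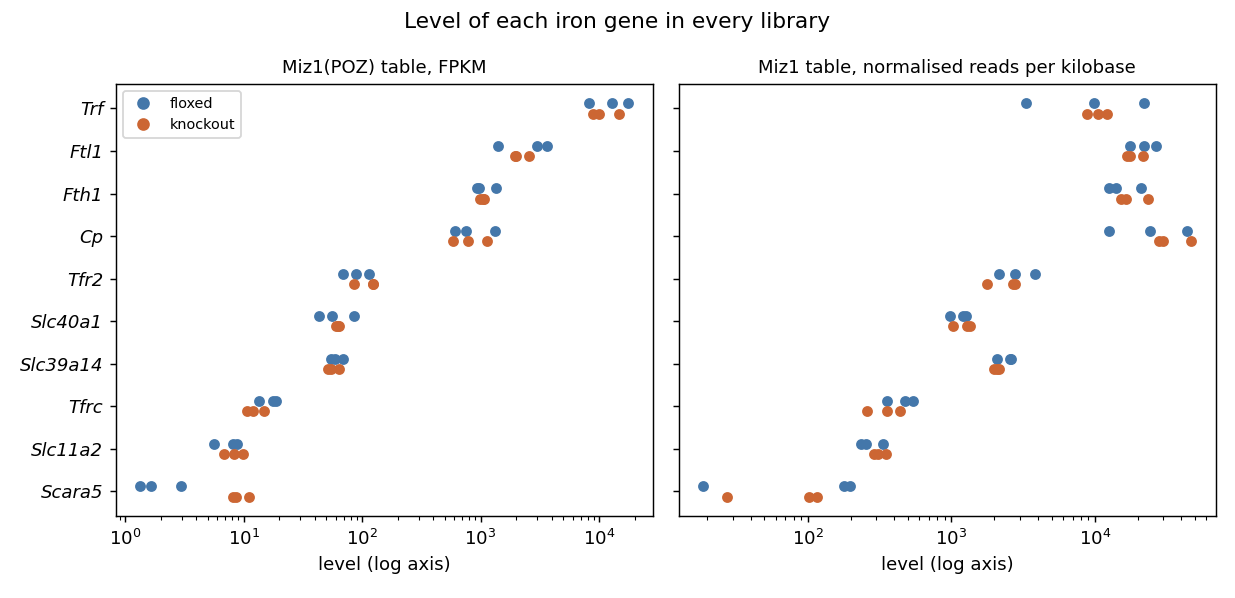
Level of each of the 10 iron genes in every library, on log axes, as FPKM in the Miz1(POZ) table (left) and as normalised reads per kilobase of transcript in the Miz1 table (right), with floxed libraries in blue and knockout libraries in orange. Transferrin is the highest gene on the left, at 12083 FPKM on average, and the fourth on the right, while Scara5 has the lowest mean in both.

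The question of the comparisons was what differs in tumours when hepatocytes lack Miz1 or its POZ domain. Over all genes, limma called 0% at an adjusted p under 0.05 in each table, so that 0 of 10 members were called in either. An unadjusted p under 0.05 was given to 364 genes of 21751 (1.67%) in the Miz1 table and to 976 of 11201 (8.71%) in the Miz1(POZ) table. With the replicate number as a block, which treats same-numbered Miz1 libraries as pairs, 1150 Miz1 genes had such a p. On the reads of 5 Miz1 libraries edgeR called 0 genes and DESeq2 called 5. The knockout and floxed libraries did not overlap for 1 of 10 members in the Miz1(POZ) table, Scara5, where 15.0% of all genes did not overlap (8.68% with the knockout higher). The Miz1 number was 0 of 10, beside 5.62% of all genes (2.57% with the knockout higher). The median log2 fold change of the 10 members was -0.07 in the Miz1 table, where that of all genes was 0.01, and -0.06 in the Miz1(POZ) table, where it was 0.03. Since the members were chosen with these contrasts known, nothing is read from these counts.

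In all sentences that give 3 values for a group, the values are those of replicates 1, 2 and 3 in that order. Scara5 encodes a scavenger receptor that takes up ferritin, a route of iron entry that does not need transferrin (chromosome 14, 65666403 to 65764826, GRCm38). In the Miz1(POZ) table it had 1.66, 1.34 and 2.97 FPKM in the floxed tumours, against 11.04, 8.20 and 8.62 after knockout. Every knockout library lay above every floxed one, and the means of 1.99 ± 0.864 and 9.29 ± 1.53 FPKM (SD, n = 3) differed 4.67-fold. On the scale of log2(value + 1), where low genes appear to differ less than they do, the knockout was higher by 1.81 ± 0.22 (moderated SE of limma), and by 1.65 to 2.03 when any 1 library was left out. With a pseudocount of 0.1 in place of 1 the difference was 2.23.

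In the Miz1 table Scara5 differed more between replicate 1 and the other replicates than between the groups. It stood at 70.8, 749 and 675 normalised reads with the floxed allele alone, and at 104, 437 and 385 with Cre. Replicate 1 was low in both groups, with a 10.6-fold range over the 6 libraries, the widest of the 10 members in that table. The log2 fold change was -0.34 ± 1.02 (moderated SE), and it turned positive when a single library was left out, namely the floxed replicate 2 (0.25) or 3 (0.17), or the knockout replicate 1 (0.31). Without both libraries of replicate 1 it was -0.79. As the units and the normalisation differ between the tables, the difference between the alleles was not tested.

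The genes whose profile over the 6 libraries lay nearest to that of Scara5 were sought by the mean absolute difference of centred log2(value + 1) values. In the Miz1 table the nearest was Glul, the glutamine synthetase of the hepatocytes next to the central vein, at a mean difference of 0.14. Glul gave 1684, 13252 and 12858 normalised reads for floxed tumours, with 2050, 7194 and 6523 for their knockout counterparts, low in the same 2 libraries as Scara5. Gm10392 and Cml2 followed at 0.16 each. In the Miz1(POZ) table the nearest were Ppp1r10, a regulatory subunit of protein phosphatase 1, at 0.27, the cytochrome P450 gene Cyp2c70 at 0.28 and Insig2, a brake on sterol synthesis, at 0.32. Glul was not among those 3, but its knockout libraries (138, 215 and 115 FPKM) also lay above its floxed libraries (88.3, 81.2 and 69.5 FPKM). Cyp2e1 overlapped there, at 822 to 2502 FPKM in floxed and 2171 to 4902 in knockout libraries.

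**Figure D2:**
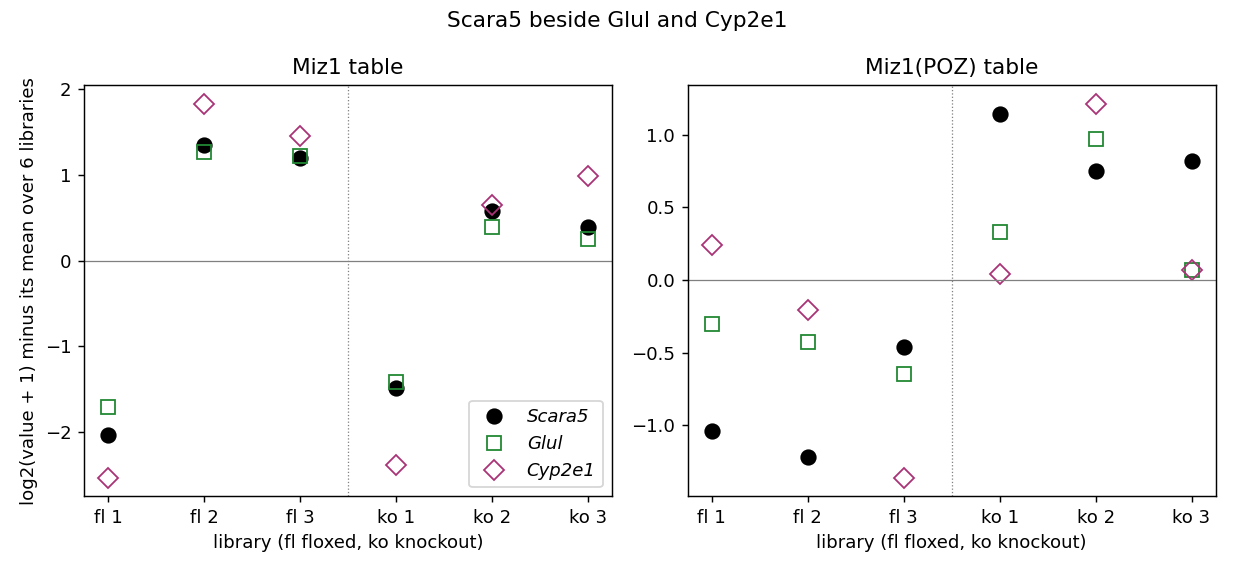
Scara5, Glul and Cyp2e1 in each library as log2(value + 1) minus the gene's own mean over 6 libraries, for the Miz1 table (left) and the Miz1(POZ) table (right). On the left all 3 genes are low in replicate 1 of both groups, and on the right Scara5 and Glul, but not Cyp2e1, separate the knockout from the floxed libraries.

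Scara5 is also known from fibroblasts, so stromal markers are given beside it. The 12 stellate cell and fibroblast markers were all listed in the Miz1(POZ) table, 1 of them under a mean of 1 FPKM, and summed to 124 to 133 FPKM in floxed and 111 to 147 FPKM in knockout libraries, ranges that overlap. Dcn alone was at 48.1 to 92.3 FPKM, so the sum says little about the other markers. Of the 11 tested, 5 had a higher mean log2 value in the knockout. Groups did not overlap for Pdgfra (log2 fold change 0.36 ± 0.14, moderated SE) and Des (0.13 ± 0.12), both higher in the knockout. Lrat was lower without overlap (-0.37 ± 0.14), and the other tested markers overlapped. In the Miz1 table the same 12 markers summed to 19442 and 28324 normalised reads in floxed and knockout replicate 1. These libraries had the least Scara5. The remaining 4 libraries had 11280 to 18076, and 11 of 12 markers were higher in the knockout. Reln alone made up 9574 of the sum in floxed replicate 1. The mean of the 12 log2(value + 1) values, each centred on its gene's mean, was -0.07 there. It was 0.94 in knockout replicate 1 and -0.43 to 0.02 in the remaining 4 libraries. For this and later marker counts, 11323 of all 21751 Miz1 genes and 6238 of all 11201 Miz1(POZ) genes tested were higher in the knockout. The part of stromal cells in the Scara5 values was not tested.

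Transferrin receptor 1, the main importer of transferrin-bound iron in dividing cells (Tfrc, chromosome 16, 32608920 to 32632794), was lower on average in both knockouts, with overlapping groups. In the Miz1(POZ) table it had 13.5, 18.7 and 17.7 FPKM in the floxed tumours, against 10.8, 12.02 and 14.9 after knockout. Only knockout replicate 3 reached into the floxed range, past floxed replicate 1. The log2 fold change was -0.38 ± 0.17 (moderated SE), and -0.51 to -0.28 with 1 library left out.

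Within the Miz1 table Tfrc stood at 2650, 1732 and 2346 normalised reads with the floxed allele alone, and at 1269, 2163 and 1749 with Cre. Floxed replicate 2 lay below knockout replicates 2 and 3, so the groups overlapped. The log2 fold change was -0.39 ± 0.25, and -0.57 to -0.18 with 1 library left out. Tfrc is abundant in red cell precursors. The 8 of 10 erythroid markers listed in the Miz1 table summed to 1298 to 3802 normalised reads in floxed and 1009 to 3937 in knockout libraries, and 0 of 8 had a higher mean log2 value in the knockout. The 9 listed in the Miz1(POZ) table, with Hbb-bs at 0 in all 6, summed to 68.1 to 129.7 FPKM in floxed and 76.0 to 228 FPKM in knockout libraries, with 5 of the 6 tested higher, and their part in Tfrc was not tested. The nearest profiles to Tfrc were those of Slc43a2, Nudt19 and Gpr182 in the Miz1(POZ) table (mean differences of 0.06, 0.07 and 0.07) and of Oaz1-ps, XLOC_050506 and Rbm20 in the Miz1 table (0.06, 0.07 and 0.07).

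Transferrin receptor 2, which hepatocytes use to sense iron-loaded transferrin (Tfr2, chromosome 5, 137569840 to 137587481), differed in opposite directions in the tables. It gave 115, 88.5 and 69.5 FPKM for floxed tumours, with 123, 123 and 85.2 for their knockout counterparts (Miz1(POZ) table), a log2 fold change of 0.29 ± 0.24 (moderated SE). Across the Miz1 libraries it had 6605, 11747 and 8589 normalised reads in the floxed tumours, against 5467, 8587 and 8266 after knockout, a log2 fold change of -0.26 ± 0.28. Groups overlapped in both tables.

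The iron carrier itself (Trf, chromosome 9, 103204001 to 103230444) differed more between libraries of a group than between groups. It stood at 8234, 12926 and 17691 FPKM with the floxed allele alone, and at 14759, 8885 and 10002 with Cre (Miz1(POZ) table, log2 fold change -0.17 ± 0.42). For the Miz1 allele it was at 56756, 8508 and 25471 normalised reads in floxed replicates 1, 2 and 3, a 6.67-fold range that enclosed the 31054, 26875 and 22549 of the knockout replicates. There the mean was lower in the knockout (26826 against 30245) while the log2 fold change was positive (0.20 ± 0.65), and without floxed replicate 2 it became -0.52. Alb, another secreted protein of hepatocytes, was likewise highest in floxed replicate 1 (4518470 normalised reads) and lowest in floxed replicate 2 (1213390).

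**Figure D3:**
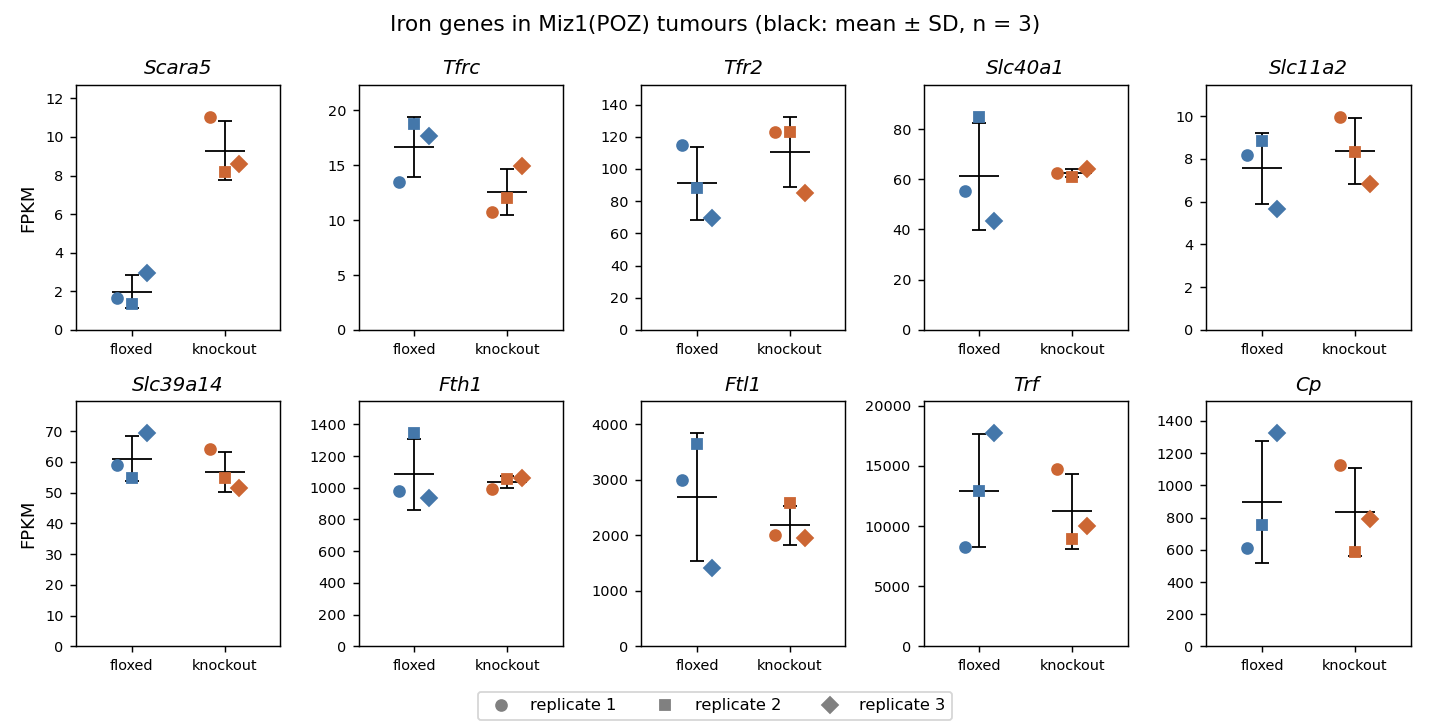
FPKM of the 10 iron genes in the 3 floxed (blue) and 3 knockout (orange) Miz1(POZ) libraries, 1 panel per gene with its own axis from 0, with marker shapes for replicates and black bars for the mean ± SD (n = 3). Scara5 is the gene whose groups do not overlap, at 1.34 to 2.97 against 8.20 to 11.04 FPKM.

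The groups overlapped in both tables for both transporters of free iron. Slc11a2, or DMT1, which moves iron out of endosomes (chromosome 15, 100387898 to 100425072), was at 5.67 to 8.82 FPKM in floxed and 6.85 to 9.97 FPKM in knockout Miz1(POZ) libraries (log2 fold change 0.14 ± 0.19, moderated SE). Within the Miz1 table it was at 710 to 1014 and 873 to 1070 normalised reads (0.22 ± 0.18). Slc39a14, or ZIP14, the hepatocyte importer of iron that is not bound to transferrin (chromosome 14, 70303469 to 70351425), varied least of the 10 members, with a 1.35-fold range over the 6 Miz1(POZ) libraries and a 1.32-fold range over the 6 Miz1 libraries. It gave 59.1, 54.8 and 69.3 FPKM for floxed tumours, with 64.2, 54.7 and 51.4 for their knockout counterparts (Miz1(POZ) table, -0.10 ± 0.15). Across the Miz1 libraries it had 12829, 10264 and 12693 normalised reads in the floxed tumours, against 10255, 10541 and 9720 after knockout (-0.22 ± 0.16). There floxed replicate 2 alone lay within the knockout range.

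The ferritin chains, which oxidise (Fth1, chromosome 19, 9980598 to 9985098) and help mineralise (Ftl1, chromosome 7, 45457944 to 45459884) stored iron, overlapped between groups in both tables. Fth1 stood at 979, 1342 and 936 FPKM with the floxed allele alone, and at 991, 1054 and 1063 with Cre (Miz1(POZ) table, log2 fold change -0.05 ± 0.23, moderated SE). Ftl1 gave 2997, 3642 and 1413 FPKM for floxed tumours, with 2005, 2578 and 1952 for their knockout counterparts (-0.20 ± 0.39). Both chains were highest in floxed replicate 2 and lowest in floxed replicate 3, so that the knockout values lay inside the floxed range.

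For the Miz1 allele Fth1 had 31296, 18859 and 20991 normalised reads in the floxed tumours, against 35343, 22901 and 24519 after knockout (0.23 ± 0.28). Ftl1 stood at 21430, 25690 and 17071 with the floxed allele alone, and at 17068, 20958 and 16234 with Cre (-0.23 ± 0.22). Within each replicate number Fth1 was higher and Ftl1 lower in the knockout library. The Fth1 to Ftl1 ratio of normalised reads was 1.46, 0.734 and 1.23 without Cre and 2.07, 1.09 and 1.51 with it. The ratio of FPKM was 0.327, 0.369 and 0.663 without Cre and 0.494, 0.409 and 0.545 with it. These ratios overlapped between groups in both tables. Ferritin genes have many processed copies in the genome. Fth-ps2, the copy listed in the Miz1 table, was at 13.2 to 36.8 normalised reads, and Fthl17 was listed at 0 in all 6 Miz1(POZ) libraries, so reads of Fth1 and Ftl1 may have been split or set aside in ways that the tables do not show.

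Ferritin chains and ferroportin are also known targets of the antioxidant factor NRF2. Of 15 NRF2 target genes, Hmox1 among them, 1 had a higher mean log2 value in Miz1(POZ) knockout tumours, beside 6238 of all 11201 genes tested. The median log2 fold change was 0.03 over all genes and -0.49 over the 15. Their summed level was 2244, 2954 and 1811 FPKM in floxed and 1216, 1443 and 2183 FPKM in knockout replicates 1, 2 and 3. In the Miz1 knockout 4 of 15 were higher (median -0.33), beside 11323 of all 21751 genes (median 0.01). The part of the NRF2 target genes in the ferritin values was not tested.

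Ferroportin is the only known exporter of iron from cells (Slc40a1, chromosome 1, 45908068 to 45926523). In the Miz1(POZ) table, but not in the Miz1 table, its knockout libraries lay close together inside a wide floxed range. Slc40a1 gave 55.4, 84.9 and 43.3 FPKM for floxed tumours, with 62.5, 60.8 and 64.3 for their knockout counterparts (Miz1(POZ) table, log2 fold change 0.08 ± 0.24, moderated SE). As for the ferritin chains, floxed replicate 2 was the highest and floxed replicate 3 the lowest library. Within the Miz1 table it had 4295, 4096 and 3285 normalised reads in the floxed tumours, against 4539, 4373 and 3492 after knockout (0.09 ± 0.17). In each of the 3 same-numbered Miz1 pairs the knockout library was higher, by 0.08 to 0.09 on the log2(value + 1) scale, and the difference was 0.08 to 0.09 with any pair left out. Leaving out floxed replicate 3 alone, with knockout replicate 3 kept, turned it to -0.03. For the Miz1(POZ) libraries, which the numbers do not pair, it became -0.13 without floxed replicate 3. Slc40a1 is abundant in macrophages that recycle red cells. The 12 macrophage and Kupffer cell markers summed to 4968 to 13221 normalised reads in floxed and 8048 to 20540 in knockout Miz1 libraries, with 10 of 12 higher in the knockout, while Slc40a1 spanned a 1.38-fold range. In the Miz1(POZ) table, 11 of the 12 were listed (not Adgre1) and summed to 139.9 to 261 and 154 to 238 FPKM, with 8 of the 10 tested higher. Their part in Slc40a1 was not tested.

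Ceruloplasmin, a copper ferroxidase of the plasma (Cp, chromosome 3, 19957054 to 20009145), varied with the library. It stood at 609.9, 756 and 1322 FPKM with the floxed allele alone, and at 1129, 589 and 788 with Cre (Miz1(POZ) table, log2 fold change -0.07 ± 0.37, moderated SE). It was highest in floxed replicate 3 and knockout replicate 1, as was transferrin, and Trf stayed within 12.7 to 17.1 times Cp while their ranges over the 6 libraries were 2.15-fold (Trf) and 2.25-fold (Cp). Acute phase genes, which inflammation raises in liver and to which Cp belongs, summed to 4778, 6002 and 12478 FPKM in floxed and 50797, 11939 and 5625 FPKM in knockout replicates 1, 2 and 3. All 12 of these genes had a higher mean log2 value in the knockout, as did 6238 of all 11201 genes tested. The knockout libraries were not alike. The mean centred log2 value of the 12 genes was highest of the 6 libraries in knockout replicate 1 (2.68) and lowest in knockout replicate 3 (-1.50). The same libraries were the highest of their groups in Cp and in acute phase genes, and their part in Cp was not tested. Across the Miz1 libraries Cp gave 177494, 50441 and 97935 normalised reads for floxed tumours, with 188916, 112644 and 119837 for their knockout counterparts (0.51 ± 0.52). Replicate 1 was the highest of both groups, and the difference was 0.05 when floxed replicate 2 was left out. The acute phase genes summed there to 259818 to 489468 normalised reads without Cre and to 401992 to 510743 with it. Of these, 10 of 12 were higher in the knockout, beside 11323 of all 21751 genes.

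**Figure D4:**
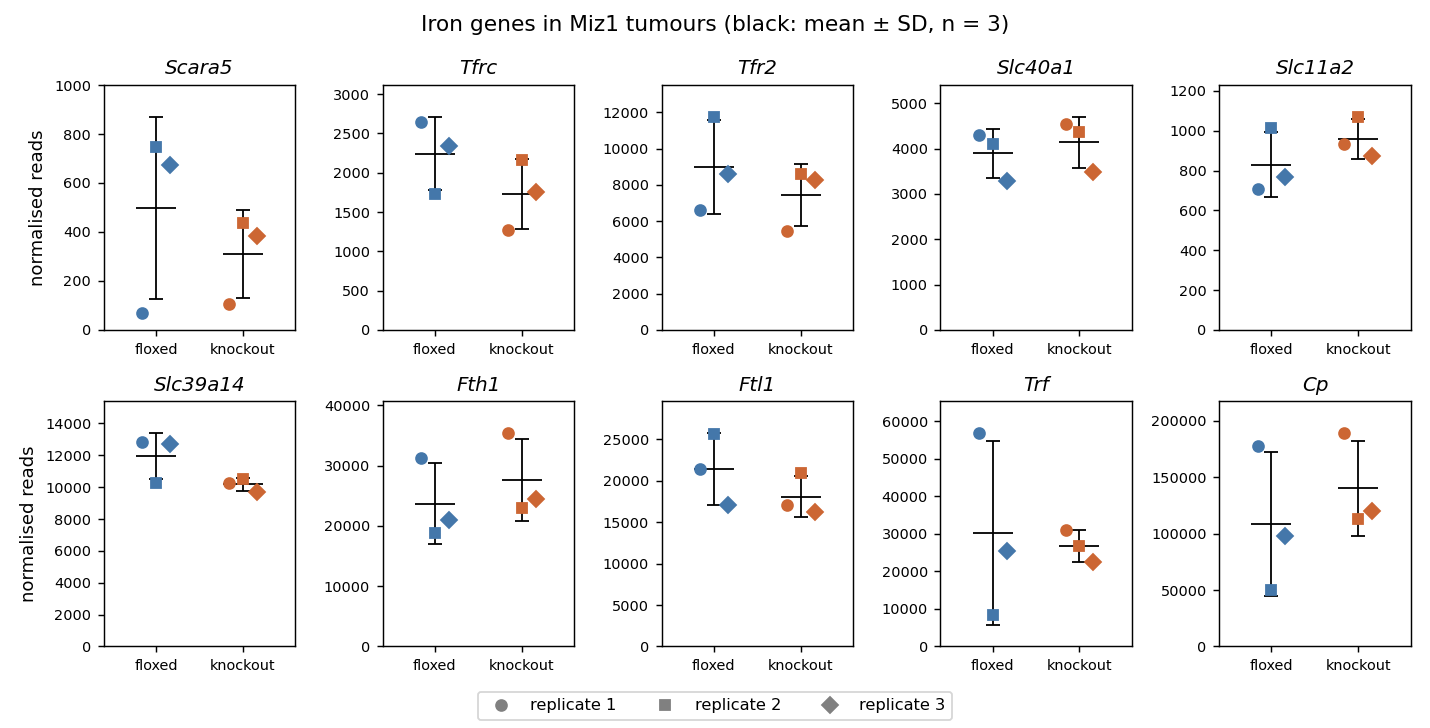
Normalised reads of the 10 iron genes in the 3 floxed (blue) and 3 knockout (orange) Miz1 libraries, 1 panel per gene with its own axis from 0, with marker shapes for replicates and black bars for the mean ± SD (n = 3). The groups overlap for all 10, and replicate 1 is the lowest of both groups for Scara5 (70.8 and 104) and the highest for Cp (177494 and 188916).

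Set side by side, 5 of 10 members had the same sign of the limma log2 fold change in both tables, where 54% of the 10842 genes tested in both did. On that scale Tfrc, Slc39a14 and Ftl1 were lower, and Slc40a1 and Slc11a2 higher, in both knockouts, and the other 5 had opposite signs. By group means Trf was lower in both knockouts, and on the reads of 5 Miz1 libraries its log2 fold change was -0.26 with edgeR and -0.28 with DESeq2. The direction of 3 members in the Miz1 table (Scara5, Slc40a1 and Trf) and of 6 in the Miz1(POZ) table (Slc40a1, Slc11a2, Fth1, Ftl1, Trf and Cp) turned when 1 library was left out. Within the same-numbered Miz1 pairs, 6 of 10 members had 1 sign in all 3 pairs, as did 27.6% of all genes, and nothing is read from this count because the contrast chose the members. Fth1, Slc40a1, Slc11a2 and Cp were higher in each knockout library than in the floxed library of the same number, and Ftl1 and Tfr2 were lower.

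**Figure D5:**
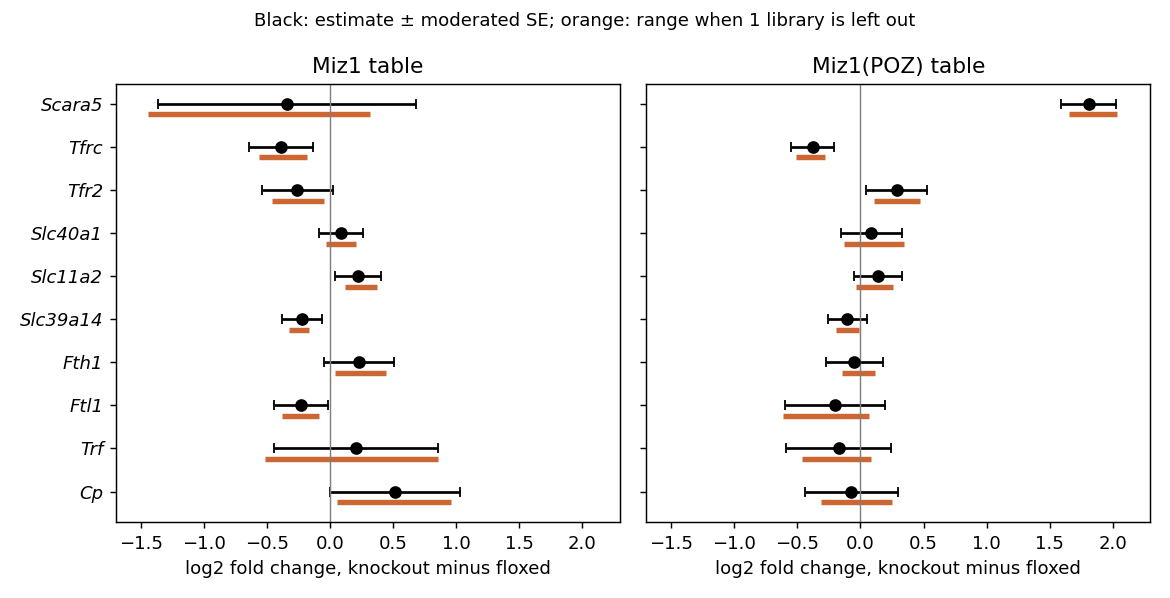
Log2 fold change, knockout minus floxed, of the 10 iron genes in the Miz1 table (left) and the Miz1(POZ) table (right), as black points with the moderated SE, and in orange the range of the estimate when each of the 6 libraries is left out in turn. Scara5 in the Miz1(POZ) table stands at 1.81 with a range of 1.65 to 2.03, while the other values lie between -0.39 and 0.51.

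Around these 10 genes, 55 other genes of iron and haem handling were listed by role. Of these, 50 were tested in the Miz1 table and limma called 0, beside 0% of all genes. Of the 50, 26 had a positive and 24 a negative log2 fold change (median 0.01, and 0.01 over all genes), and groups did not overlap for 2, both lower in the knockout (3.05% of all genes). The Miz1(POZ) table had 45 tested and 0 called, and 30 of these were positive and 15 negative (median 0.08, and 0.03 over all genes), and groups did not overlap for 4 with the knockout higher (8.68% of all genes) and 4 with it lower (6.32% of all genes).

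Hepcidin, the liver hormone that removes ferroportin from the cell surface (Hamp), had 964, 3489 and 3762 normalised reads in the floxed tumours, against 2023, 5279 and 5998 after knockout (Miz1 table). Replicate 1 was again the lowest of both groups, the knockout library was the higher of each same-numbered pair, and the log2 fold change was 0.78 ± 0.65 (moderated SE). For the Miz1(POZ) allele it stood at 668, 570.4 and 518 FPKM with the floxed allele alone, and at 256, 577 and 614 with Cre (-0.37 ± 0.36), with knockout replicate 1 the lowest. Its close paralogue Hamp2 gave 12.3, 4.38 and 17.1 FPKM for floxed tumours, with 19.1, 38.3 and 33.4 for their knockout counterparts (Miz1(POZ) table, 1.47 ± 0.47), groups that did not overlap, and reads may be shared between these similar genes. For the Miz1 allele Hamp2 was at 1.20 to 38.4 normalised reads with overlapping groups.

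Among the genes that set hepcidin, the groups overlapped in both tables for Hfe, Hfe2, Bmp6 and Tmprss6. Log2 fold changes in the Miz1 and Miz1(POZ) tables were 0.00 ± 0.13 and 0.24 ± 0.18 for Hfe, the haemochromatosis gene, and 0.13 ± 0.12 and 0.11 ± 0.16 for hemojuvelin, listed as Hfe2. For the ligand gene Bmp6 they were 0.05 ± 0.21 and -0.18 ± 0.24, and for Tmprss6, the protease that restrains hepcidin, 0.07 ± 0.15 and 0.18 ± 0.19. Bmp2, another hepcidin-inducing ligand made by endothelium, had 747, 893 and 766 normalised reads in the floxed tumours, against 449, 551 and 554 after knockout (Miz1 table, -0.63 ± 0.15), without overlap. Across the Miz1(POZ) libraries Bmp2 overlapped (0.03 ± 0.16). Endothelial markers were listed in full, 9 of 9, and summed to 14740 to 18713 normalised reads in floxed and 14661 to 16749 in knockout Miz1 libraries, with 5 of 9 higher in the knockout. Of the sinusoidal markers among them, Stab2 had 5228, 5372 and 4558 normalised reads in the floxed tumours and 4225, 4488 and 4272 after knockout, without overlap, and Clec4g overlapped with a log2 fold change of -0.37 ± 0.18, while Lyve1 was at 0.13 ± 0.16. These were looked up after their values were seen, and their part in Bmp2 was not tested.

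The iron regulatory proteins, which bind the hairpins shown above, are encoded by Aco1 and Ireb2. Aco1 was at 4871 to 5297 normalised reads in floxed and 4442 to 4591 in knockout Miz1 libraries (-0.17 ± 0.12), without overlap, and had a log2 fold change of 0.07 ± 0.16 in the Miz1(POZ) table. Ireb2 was at -0.03 ± 0.13 and 0.08 ± 0.16 on the same scale, and Ncoa4, which carries ferritin to lysosomes, at -0.23 ± 0.14 and 0.04 ± 0.14.

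Haem oxygenase 1, which frees iron from haem (Hmox1), differed in opposite directions in the tables. It stood at 10.9, 18.3 and 11.6 FPKM with the floxed allele alone, and at 9.81, 9.10 and 8.57 with Cre (Miz1(POZ) table, -0.49 ± 0.19), without overlap. Within the Miz1 table it gave 585, 318 and 369 normalised reads for floxed tumours, with 846, 589 and 379.6 for their knockout counterparts (0.49 ± 0.36), with overlap. Alas1, the rate-limiting enzyme of haem synthesis in liver, had the most negative log2 fold change of the wider list in both tables. It had 3661, 14115 and 11355 normalised reads in the floxed tumours, against 3183, 4165 and 5191 after knockout (Miz1 table, -1.03 ± 0.52). For the Miz1(POZ) allele it stood at 359, 460.1 and 137 FPKM with the floxed allele alone, and at 106, 153 and 143 with Cre (-1.09 ± 0.44). A single floxed library, replicate 1 in the Miz1 table and replicate 3 in the Miz1(POZ) table, lay within the knockout range, so the groups overlapped.

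Of the other genes with the widest differences in the Miz1(POZ) table, the haem transporter gene Slc48a1 gave 30.0, 42.0 and 47.0 FPKM for floxed tumours, with 24.1, 21.7 and 28.3 for their knockout counterparts (-0.65 ± 0.20), without overlap. Steap4, a metalloreductase gene, had 29.2, 29.5 and 39.5 FPKM in the floxed tumours, against 109, 56.9 and 37.6 after knockout (0.91 ± 0.37), and the haem-binding plasma protein gene Hpx had 2209, 2374 and 2850 FPKM against 9852, 4234 and 2187 (0.87 ± 0.54). Both were highest in knockout replicate 1, the library with the highest sum of acute phase genes. Steap2 had a log2 fold change of 0.60 ± 0.37. The others in the Miz1 table were the lactoferrin gene Ltf (0.87 ± 1.12), Slc22a17, which encodes a lipocalin receptor (-0.68 ± 0.38), and the ferroxidase gene Heph (0.53 ± 0.32), whose groups overlapped. Ltf is a neutrophil gene, and at 105 normalised reads it was highest in knockout replicate 1, where the 4 of 6 neutrophil markers listed summed to 794 against 55.5 to 295 elsewhere.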

How the data were processed

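The 12 libraries were made from total RNA of liver tumours with the Illumina TruSeq kit, per the labels. Per the submitters' processing notes, the tools were RSEM 1.1.17 and Bowtie2 2.2.6, DESeq2 1.16.1 and also edgeR 3.18.1, bcl2fastq 2.19.0 and Trimmomatic 0.36, with mm10 as the build, named with no role or order. The tool behind each table is not stated there. In the Miz1 table the authors deposited normalised signal values, each a read count scaled by a factor of its library. All values (100%) of each of the 6 libraries came out as whole reads, within 0.01 of a read. Floxed replicate 3, where 1 read had a value of 1.00994, was nonetheless left out of the edgeR and DESeq2 runs. The 4 entries of the Miz1 table that name no gene (38% to 50.8% of column sums) were left out. The deposited Miz1(POZ) table holds FPKM, which cannot be told from RPKM by the values.

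Each table was fitted alone in R 4.3.3 on log2(value + 1) with limma 3.58.1 and a trended empirical Bayes step, over genes with a mean of at least 1, with p-values adjusted by Benjamini and Hochberg over all of them and called under 0.05. Members, gene lists and tests were chosen with earlier results of these data known. Beside the 10 members, the genes named were 10 regulators, the 5 other iron genes of largest fold per table, and the 3 nearest profiles to Scara5 and Tfrc. Glul and Cyp2e1 in the Miz1(POZ) table, Alb and the marker values were added beside results. Replicate numbers come from the titles. Miz1 libraries with the same number deviated together (correlations across genes of 0.489, 0.339 and 0.118), and are treated as pairs here. The pairing of numbers 2 and 3 is uncertain, since floxed replicate 2 and knockout replicate 3 also deviated together (0.282). Replicate 1 of either group correlated negatively with replicates 2 and 3 of the other (-0.427 to -0.109). edgeR 4.0.16 and DESeq2 1.42.0 were run on recovered reads of 5 libraries. Figures were drawn with matplotlib 3.10.9.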

Additional observations from a re-analysis of the deposited data

How the results depend on the processing

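No gene passed limma's threshold in the Miz1 table under another pseudocount, filter or scaling, under the replicate block (0 genes, smallest adjusted p = 0.908), or with any 1 library or replicate number left out. edgeR called 0 genes there and DESeq2 called 5. In the Miz1(POZ) table the count was 0 under each pseudocount, filter, scaling and the replicate block, and 0 to 4 with 1 library left out. It was 1 without floxed replicate 1, 2 without floxed replicate 2 and 4 without floxed replicate 3. Without the pair of libraries that share a replicate number, an alternative chosen after seeing the data, the count was 0, 2 and 57 genes for numbers 1, 2 and 3. The cause was not tested. The 364 Miz1 genes at an unadjusted p under 0.05 became 1150 under the replicate block, 1299 without floxed replicate 1 and 1309 without both libraries of number 1. Same-numbered Miz1(POZ) libraries did not all deviate together (-0.09, 0.23 and 0.17), so the numbers do not pair them. Of 340 values of members under alternatives, 3 moved by more than 1 SD between replicates: Scara5 in the Miz1(POZ) table with a pseudocount of 0.1 (2.23), Tfrc in the Miz1 table without replicate number 2 (-0.74) and Trf in the Miz1(POZ) table without replicate number 1 (-0.68). This count is no measure of stability. The filters and the replicate block leave a log2 fold change as it is, so those values could not move. For members that vary widely, 1 SD is also a wide margin. Scara5 in the Miz1 table ran from -1.45 to 0.31 with 1 library left out, and none of these values counted as moved. Slc40a1 and Trf in the Miz1 table turned direction with edgeR and DESeq2 on 5 libraries, which lack floxed replicate 3. Without that library limma also gave a negative value for Slc40a1 (-0.03), but a positive one for Trf (0.28). With 3 libraries a group, differences the size of the SE given cannot be resolved.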

Other observations

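Further genes from the wider list of iron and haem genes, not described above, are given here. They were picked after their values were seen. Mfi2, which encodes melanotransferrin, an iron-binding membrane protein, was at 199, 3.25 and 127 normalised reads in floxed and at 58.7, 50.7 and 98.4 in knockout Miz1 replicates 1, 2 and 3. In the Miz1(POZ) table it was at 1.70 FPKM in floxed replicate 3 and at 0.08 to 0.37 FPKM in the other 5 libraries. Cpox, an enzyme of haem synthesis, was at 1913 and 1125 normalised reads in replicate 1 of the floxed and knockout Miz1 groups and at 3777 to 6750 in the other 4 libraries, the same low libraries as for Scara5 and Glul. Slc25a37, the mitochondrial iron importer mitoferrin 1, was at 12.5 to 16.0 FPKM in floxed and 7.81 to 10.2 FPKM in knockout Miz1(POZ) libraries, and Blvrb, a biliverdin reductase, at 73.9 to 94.9 and 45.4 to 70.7 FPKM. Neither overlapped between groups there, where both are among the 4 of the wider list with the knockout lower, and both overlapped in the Miz1 table. Of the 4 with the knockout higher in the Miz1(POZ) table, Hamp2 is described above. The others were Hmox2 (21.0 to 24.5 FPKM in floxed, 26.4 to 39.3 in knockout), Slc39a8 (6.35 to 7.53 and 7.82 to 9.94) and Neo1 (3.26 to 4.08 and 4.13 to 4.32). These also overlapped in the Miz1 table.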
